A study of Macaca mulatta with 30 samples.

Results

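Fetal lung was compared between animals delivered 5 days after a maternal injection of either betamethasone preparation and saline controls. The 2 drug groups were pooled into a single treated group of 6 libraries (3 clinical drug and 3 Beta-Ac) and set against 3 saline libraries, so that 9 of the 30 libraries of the series entered the comparison. The clinical drug (Celestone, a mixture of betamethasone phosphate and betamethasone acetate) was given at 0.25 mg/kg, and Beta-Ac, the acetate alone, at 0.125 mg/kg. Pregnant rhesus macaques were injected intramuscularly, with saline in the controls. The labels give a gestational age of day 124 to 130, and the ages at delivery listed for the same animals were 131 to 136 days. All fetuses were wild type, each library came from a different fetus, and RNA was taken from frozen tissue of the right lower lobe, so cell types were not separated.

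Betamethasone is a synthetic glucocorticoid. It binds the glucocorticoid receptor, a transcription factor that moves to the nucleus and switches target genes on or off within hours. Given before preterm birth, it speeds maturation of the fetal lung, in which type II cells make surfactant, type I cells form the thin gas exchange surface, and epithelial sodium channels draw fluid out of the air spaces. The pooled comparison asks which transcripts of the lung still differed from controls 5 days after dosing.

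Alveolar epithelial genes (SFTPB, SFTPC, NKX2-1 and AGER), airway genes (FOXJ1 and SCGB1A1), endothelial genes (PECAM1 and CDH5), COL1A1, ACTA2 and CD68 were detected in all 9 libraries. Defining genes of brain (GFAP), liver (APOB), heart (NPPA) and skeletal muscle (CKM) were at or below 0.478 CPM, that is, reads scaled to the normalized library size. Of the other 3 genes checked, NEUROD6 reached 3.31 CPM, SYN1 reached 5.9 CPM and ALB ranged from 0.24 to 26.6 CPM. Library totals were between 14.4 and 19.6 M reads in saline and between 21.7 and 29 M reads in treated animals. They did not overlap (difference of the means 9.1 M reads; exact two-sided permutation test, p = 0.0119, the smallest that 84 splits allow). Gestational age at delivery differed by 0.333 days between the groups (exact two-sided permutation test, p = 0.881). Treated animals all carry numbers beginning with 16, whereas controls 15-92 and 15-101 do not and control 16-113 does. Treatment and the animal number can therefore be told apart through 16-113 only.

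No gene passed the threshold for differential expression, which asked for a 1.5-fold difference, an unadjusted p below 0.05 and a Storey q below 0.1. In edgeR's quasi-likelihood test the count was 0 of 17157 genes (0%), and the smallest q was 0.141. Without adjustment, 1419 genes had a p below 0.05, of which 769 were higher (4.48% of the genes tested) and 650 lower (3.79%) in the treated lungs. A further requirement of a 1.5-fold difference left 485 genes, 327 of them higher and 158 lower. All 6 treated libraries lay above all 3 saline libraries for 377 genes (2.2%) and below them for 304 genes (1.77%). The count of genes passing depended on the tool and on the controls. DESeq2 called 96 genes (62 higher, 34 lower), limma-voom called 1, and a joint fit with the 6 libraries taken at 4 h or 6 h called 2. The groups did not overlap for 67 of the 96. Those with overlap include STEAP4 and ENSMMUG00000029342, in which control 16-113 stood within the treated range. With control 16-113 left out, edgeR called 44 genes (19 higher, 25 lower). For 30 of these 44, control 16-113 itself lay inside the range of the treated lungs.

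Among genes with a symbol, a 1.5-fold difference and a mean of at least 1 CPM in a group, those of lowest p with separated groups were CCDC107, CHL1, IRS2, NR1D2 and DACT3 above saline and NTNG2, CPAMD8, TMEM255A, B3GALT2 and TOX3 below it. KLF2 and LPCAT1, described with their lists, had a lower p than NR1D2 and DACT3 but differed by less than 1.5-fold, and the identifier of lowest q, ENSMMUG00000007056, has no symbol. The pooled edgeR fit called none of these 10 genes. With the drugs as separate groups in edgeR, NTNG2 and NR1D2 passed the threshold for the clinical drug against saline (q = 0.0495 for each). With Beta-Ac they did not (q = 0.32 and 0.395). DESeq2 called each of the 10, with a Storey q from 1.7e-05 (CHL1 and NTNG2) to 0.033 (B3GALT2). It also called MUC1, CEBPA, MS4A15, EHF, RSAD2, CEBPD, HK2, NR1D1 and STEAP4, which are described below. The 10 genes were chosen by low p and separated groups in the same libraries, so their DESeq2 calls are not separate support. The 10 genes have no common function. CHL1 is a cell adhesion molecule of the L1 family, IRS2 carries the signal of the insulin receptor into the cell, NR1D2 is a nuclear receptor that represses clock genes, and DACT3 is an inhibitor of Wnt signaling. NTNG2 is a membrane-anchored netrin, CPAMD8 is a relative of complement C3 and alpha-2-macroglobulin, B3GALT2 is a galactosyltransferase, and TOX3 is a high mobility group box protein.

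CCDC107 had few reads, 65 in the saline libraries together and 507 in the treated libraries together. It was at 1.38, 1.24 and 1.23 CPM in saline lungs and between 2.81 and 3.66 CPM (median 3.34) in treated lungs. The difference was 1.36 ± 0.19 on the log2 scale (estimate ± SE; q = 0.166), and the gap between the groups was wider than the whole range of either. CHL1 was at 12.4, 20.3 and 20.3 CPM in saline and between 31 and 41.6 CPM (median 34) in treated lungs, a log2 difference of 0.99 ± 0.16. IRS2 was at 6.43, 9.24 and 7.35 CPM in saline and between 12.3 and 17.4 CPM (median 14.5) after treatment, a log2 difference of 0.94 ± 0.16. Both genes were higher in every treated animal, with CHL1 lowest in control 15-92. NR1D2 was at 14.7, 17.4 and 17.3 CPM in saline and between 23.7 and 38.6 CPM (median 27.5) in treated lungs, with the 3 clinical drug animals above the 3 Beta-Ac animals. DACT3 was at 13.6, 11.6 and 10.4 CPM in saline and between 16.12 and 22.6 CPM (median 18.6) in treated lungs.

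Among the genes below saline, NTNG2 was at 25.4, 25.4 and 27.9 CPM in controls and between 6.65 and 14 CPM (median 11.7) in treated lungs. Its log2 difference was -1.28 ± 0.20 (q = 0.216), and the 3 clinical drug animals were below the 3 Beta-Ac animals. CPAMD8 was at 32.1, 42 and 39.4 CPM in saline and between 17.7 and 29 CPM (median 22.8) after treatment. TMEM255A was at 15.7, 11.7 and 14.6 CPM in controls and between 5.65 and 10.9 CPM (median 6.82) in treated lungs, where animal 16-128 was the highest. B3GALT2 was low, at 2.22, 1.79 and 1.59 CPM in saline and between 0.471 and 1.13 CPM in treated lungs. It had 94 reads in the saline libraries together and 106 in the treated libraries together. TOX3 was at 28.5, 22.8 and 17.4 CPM in saline and between 12.6 and 16.4 CPM in treated lungs, so that control 16-113 stood next to the treated animals. Against 16-113 alone the log2 difference of TOX3 was -0.22, compared with -0.62 against all 3 controls. Against that animal alone the other 4 lower genes had log2 differences from -1.36 (NTNG2) to -0.77 (CPAMD8). The 5 higher genes had differences from 0.77 (NR1D2) to 1.43 (CCDC107). The direction of these differences was fixed by the choice of genes, which asked for treated animals on one side of every control, 16-113 included. The plot of these 10 genes by animal shows the separation of the groups.

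**Figure D1:**
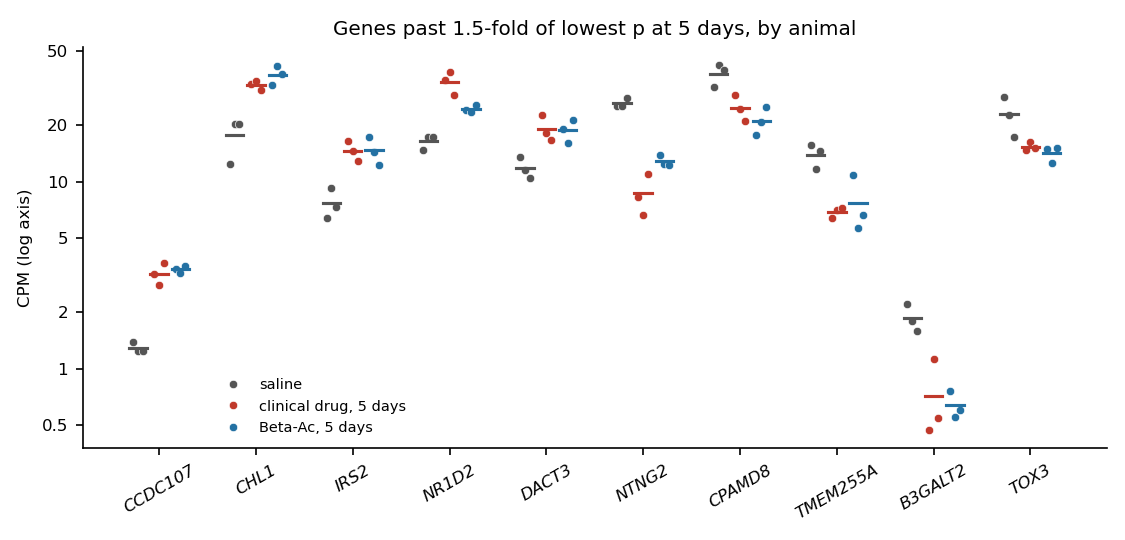
CPM on a log axis of 10 genes with a symbol, 5 above and 5 below saline, that had the lowest p among those with separated groups, a 1.5-fold difference and a mean of at least 1 CPM in a group, in saline lungs (grey), clinical drug lungs at 5 days (red) and Beta-Ac lungs at 5 days (blue). Points are animals and bars are group means; all 6 treated animals lie above the 3 saline animals for the first 5 genes and below them for the last 5.

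Surfactant genes were mostly slightly above saline. Of the 15 tested, 14 had a positive log2 difference, as did 9030 of all 17157 genes tested. In this list 4 genes had an unadjusted p below 0.05 (all higher), and the median was 0.37, against 0.012 for all genes tested. Neither edgeR nor DESeq2 called a member, and LPCAT1 missed the DESeq2 call by its fold only (log2 difference 0.58, q = 0.00091). LPCAT1, the acyltransferase that makes the disaturated phosphatidylcholine of surfactant, was at 286, 273 and 301 CPM in saline lungs and between 370 and 536 CPM (median 414) in treated lungs. Every treated animal was above every control, and the log2 difference was 0.58 ± 0.11 (q = 0.289). ABCA3, which pumps lipid into lamellar bodies, was at 201, 194 and 216 CPM in saline and between 216 and 322 CPM (median 285) in treated lungs, a log2 difference of 0.45 ± 0.12.

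The surfactant proteins themselves overlapped between the groups. SFTPB, a hydrophobic protein needed to spread the surfactant film, was at 3231, 3143 and 3867 CPM in saline and between 3510 and 5168 CPM in treated lungs (log2 difference 0.38 ± 0.13). SFTPC was at 2734, 2750 and 5222 CPM in saline and between 3306 and 5736 CPM in treated lungs (0.41 ± 0.23). SFTPD, a collectin of innate defence, was at 981, 837 and 1497 CPM in saline and between 1162 and 1828 CPM in treated lungs (0.35 ± 0.18). For all 3 proteins control 16-113 was the highest control and stood within the treated range. Against it alone, the log2 differences were 0.21 for SFTPB, -0.13 for SFTPC and -0.08 for SFTPD. LAMP3, a protein of the lamellar body membrane, was at 42.6, 47.6 and 94.6 CPM in saline and between 56.5 and 85.5 CPM in treated lungs, and its log2 difference of 0.18 ± 0.24 became -0.42 against 16-113. No identifier was matched to SFTPA1.

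Other genes of type II cells were also above saline, in 15 of 15 tested (median 0.29), although only 3 had an unadjusted p below 0.05. MUC1, a mucin of the type II cell surface, was at 122, 135 and 127 CPM in saline. It was between 143 and 224 CPM (median 208) in treated lungs, with no overlap (0.63 ± 0.13, edgeR q = 0.289, DESeq2 q = 0.0040). Genes of type I cells were evenly divided, with 9 positive and 9 negative log2 differences and a median of 0.015. CLDN18, a claudin of alveolar tight junctions, was between 53.5 and 90.3 CPM in saline and between 91.1 and 138 CPM in treated lungs (0.59 ± 0.18), and MS4A15 was between 1.45 and 3.39 CPM in saline and between 3.57 and 17.9 CPM in treated lungs (1.77 ± 0.53). AGER, the receptor that marks type I cells, ranged from 649 to 1464 CPM in saline and from 773 to 1936 CPM in treated lungs and was not separated. HOPX, a homeodomain protein of type I cells, was between 178 and 229 CPM in saline and between 133 and 196 CPM in treated lungs (-0.26 ± 0.14). In whole lung, more cells of a type and more RNA per cell cannot be told apart. The plot of alveolar genes shows the differences with their standard errors.

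**Figure D2:**
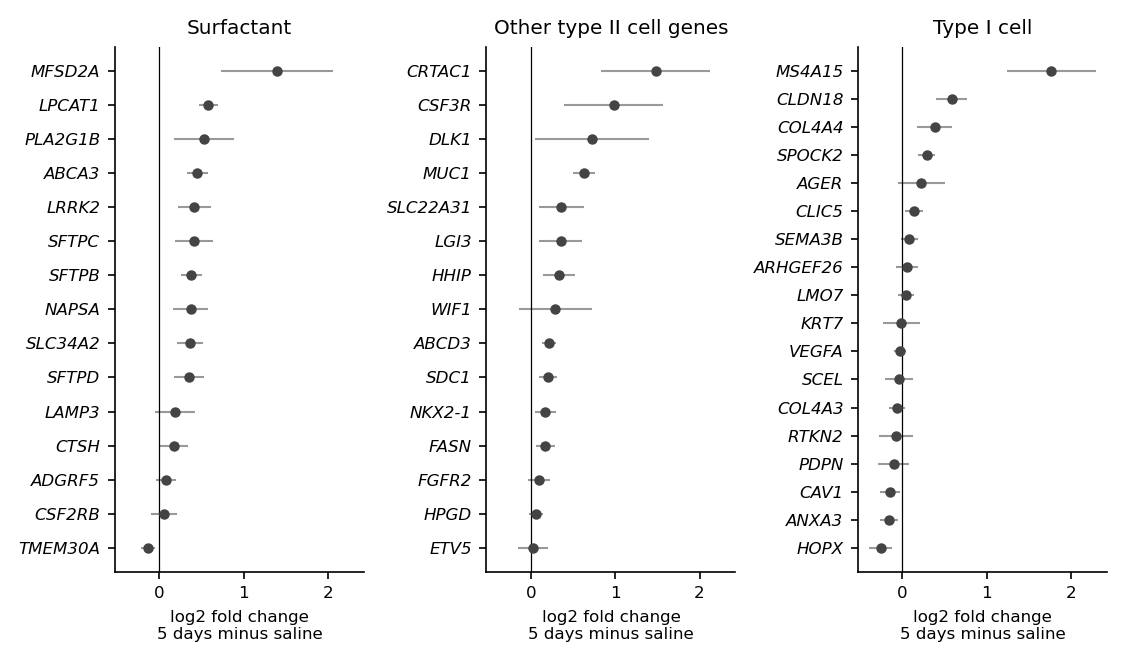
Log2 fold change (5 days minus saline, both drugs pooled) with its standard error for the 15 surfactant genes, 15 other type II cell genes and 18 type I cell genes tested. Surfactant and type II genes lie mainly to the right of 0, and type I genes lie on both sides.

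Phosphatidylcholine and fatty acid synthesis genes were close to saline. Among 21 tested, 13 were positive and 8 negative, with a median of 0.098, and 1 had an unadjusted p below 0.05. That gene was CEBPA, a transcription factor of type II and lipid-storing cells, at 7.93, 8.21 and 10.9 CPM in saline and between 10.2 and 16.2 CPM in treated lungs (0.63 ± 0.16). Genes of fluid clearance and ion transport were positive in 18 of 25, with a median of 0.092 and 3 members with an unadjusted p below 0.05. The 3 subunits of the epithelial sodium channel overlapped between the groups. SCNN1A was between 129 and 206 CPM in saline and between 124 and 194 CPM in treated lungs (0.04 ± 0.17). SCNN1B was between 23.6 and 31.8 CPM in saline and between 30.8 and 50 CPM in treated lungs (0.43 ± 0.17, among the 3 members with an unadjusted p below 0.05), and SCNN1G was between 39.8 and 48 CPM in saline and between 37.7 and 70.8 CPM in treated lungs (0.32 ± 0.18). CA12, a membrane carbonic anhydrase, had the lowest p of the list, at 0.24 to 1.17 CPM in saline and 0.628 to 3.98 CPM in treated lungs. AQP5 had no identifier.

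Airway epithelial genes showed the highest medians of the 32 gene lists. Of 61 genes of ciliated cells, 59 were above saline with a median log2 difference of 0.83, but only 4 had an unadjusted p below 0.05 and none separated the groups. Of 18 genes of secretory cells, 17 were above saline with a median of 0.88 and 4 had an unadjusted p below 0.05. FOXJ1, the transcription factor that switches on the cilium program, was at 19.8, 20.3 and 12.7 CPM in saline and between 14.5 and 61 CPM (median 24.3) in treated lungs. AGR2, a disulfide isomerase used in mucin folding, was at 6.97, 18.1 and 3.09 CPM in saline and between 16.7 and 40.4 CPM in treated lungs (1.40 ± 0.46). SCGB3A2, a small secreted protein of airway cells, was between 31.4 and 48.2 CPM in saline and between 51.7 and 325 CPM in treated lungs with no overlap. SCGB1A1, the club cell secretoglobin, overlapped widely, from 2.73 to 122 CPM in saline and from 30.1 to 137 CPM in treated lungs. MUC5B, a gel-forming mucin, reached 3.79 CPM in saline and 18.6 CPM in treated lungs.

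A Beta-Ac animal, 16-128, and a control, 15-101, weighed on these lists. The summed level of the ciliated genes was 338, 540 and 291 CPM in saline lungs, 415, 493 and 537 CPM in clinical drug lungs, and 1141, 387 and 472 CPM in Beta-Ac lungs, with 16-128 first. For the secretory genes the sums were 446, 594 and 453 CPM in saline, 648, 574 and 738 CPM after the clinical drug, and 1329, 622 and 776 CPM after Beta-Ac. The highest sum was that of 16-128 in both lists, and the highest control was 15-101. Without 16-128 the medians were 0.39 for ciliated and 0.43 for secretory genes, and without 15-101 they were 1.76 and 1.45. The lower lobe holds airways as well as alveoli, and the part of the airway share of each sample in these differences was not tested. Basal cell genes (9 tested, 6 positive, median 0.1) and cartilage genes (16 tested, 11 positive, median 0.29), which also belong to conducting airways, had 0 members with an unadjusted p below 0.05. TP63, the basal cell transcription factor, was also highest in 16-128, at 6.17 CPM. COL9A1, a cartilage collagen, was between 80.6 and 227 CPM in saline and between 158 and 233 CPM in treated lungs.

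**Figure D3:**
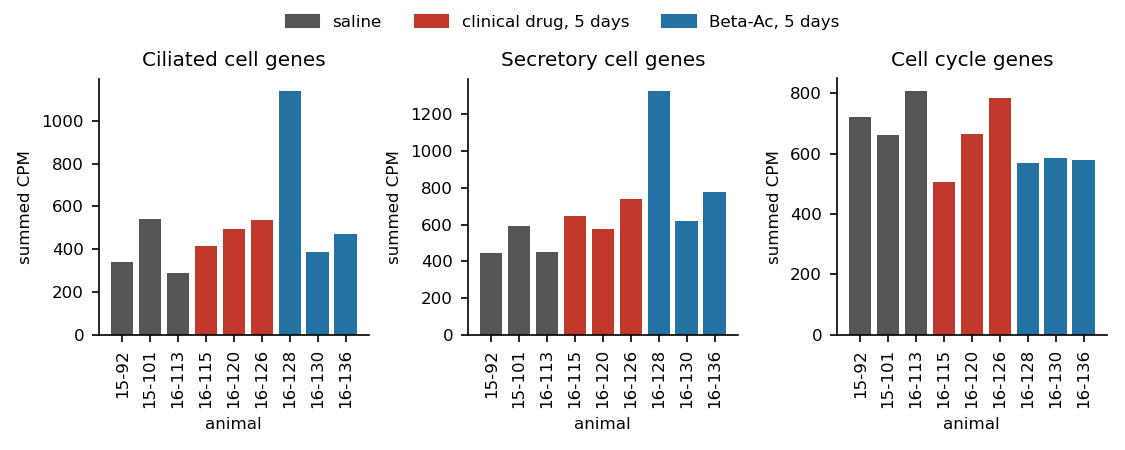
Summed CPM of the ciliated cell, secretory cell and cell cycle genes in each of the 9 libraries; grey bars are saline, red bars clinical drug and blue bars Beta-Ac, and every bar starts at 0. Ciliated and secretory genes are highest in Beta-Ac animal 16-128 (1141 and 1329 CPM), and cell cycle genes overlap between the groups.

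Genes of the cell cycle were slightly lower after treatment. Of 48 tested, 46 had a negative log2 difference, 8 had an unadjusted p below 0.05 (all lower), and the median was -0.27. MCM4, a subunit of the replicative helicase, was between 29.9 and 32.7 CPM in saline and between 21.6 and 28.6 CPM in treated lungs. It was the only member of the list in which the groups did not overlap (1.77% of all genes lay below saline in all treated animals). CCNA2, the cyclin of S phase and mitotic entry, was at 30.3, 25.9 and 30.5 CPM in saline and between 17.1 and 28.9 CPM in treated lungs (-0.38 ± 0.14). CDK1, its mitotic kinase, was between 19.9 and 23.7 CPM in saline and between 12.2 and 21.1 CPM in treated lungs, and TPX2, a spindle assembly factor, was between 18.1 and 21.4 CPM and between 10.5 and 19.6 CPM. The summed level was 719, 662 and 808 CPM in saline, 506, 666 and 785 CPM after the clinical drug, and 568, 585 and 580 CPM after Beta-Ac. The clinical drug animals thus overlapped the controls, and the Beta-Ac animals were all below them. The median stayed between -0.42 and -0.14 with any animal left out.

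Endothelial genes were lower in 24 of 31, with a median of -0.13, and 3 had an unadjusted p below 0.05. ERG, an endothelial transcription factor, was between 105 and 119 CPM in saline and between 78.6 and 101 CPM in treated lungs (-0.32 ± 0.08, q = 0.394). KLF2, which responds to blood flow, went the other way: it was at 25.1, 25.2 and 24.2 CPM in saline and between 33.1 and 43.8 CPM (median 35.3) in treated lungs, with no overlap (0.55 ± 0.10, q = 0.257). PECAM1 (between 758 and 823 CPM in saline, 595 and 777 CPM in treated lungs) and CDH5 (between 840 and 921 CPM, and 688 and 860 CPM) had log2 differences of -0.18 and -0.19. Against control 16-113 alone the endothelial median was -0.0019. Among 6 lymphatic genes, MMRN1 had the lowest p, at 24.7 to 40.5 CPM in saline and 19.6 to 31.6 CPM in treated lungs.

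Of the connective tissue lists, those of elastic fibers and matrix were centered on 0 and that of smooth muscle was slightly above it. The 19 genes of elastic fibers and myofibroblasts had a median of 0.0016 with 0 unadjusted p below 0.05, and FBN1, the microfibril protein fibrillin-1, was between 338 and 429 CPM in saline and between 312 and 356 CPM in treated lungs. No identifier was matched to ELN. The 24 lipofibroblast and matrix genes had a median of -0.014, which was -0.22 against 16-113 alone and reached 0.20 with an animal left out. Within this list LUM, the matrix proteoglycan lumican, was at 647, 608 and 911 CPM in saline and between 427 and 655 CPM in treated lungs (-0.45 ± 0.16). The 17 smooth muscle genes had a median of 0.13. DES, the muscle filament protein desmin, was at 52.2, 57.2 and 43.3 CPM in saline and between 60.3 and 79.5 CPM in treated lungs with no overlap (0.45 ± 0.12), and MYOCD, a coactivator of smooth muscle genes, was between 11.7 and 12.7 CPM and between 12.7 and 19.9 CPM. MMP7, the protease matrilysin of airway and type II epithelium, led the 18 matrix protease genes (median 0.0046) at 132, 130 and 111 CPM in saline and between 159 and 526 CPM in treated lungs, where clinical drug animal 16-126 was the highest.

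Lineage factors of epithelium and mesenchyme and related growth regulators were mostly close to saline. Of 21 tested, 16 were positive (median 0.17), 4 had an unadjusted p below 0.05 in the higher and 1 in the lower direction, and 3 (FOXP2, EHF and IGF2BP1) lay above saline in all treated animals, as 2.2% of all genes did. EHF, an ETS factor of epithelia, was at 3.54, 4.55 and 3.24 CPM in saline and between 5.35 and 18 CPM (median 8.7) in treated lungs (1.32 ± 0.37), and ELF3 and ELF5, of the same family, had log2 differences of 0.60 ± 0.22 and 0.86 ± 0.29 with overlap. EHF was again highest in 16-128, and without that animal its log2 difference was 1.03. Signaling genes of the Wnt, FGF, hedgehog, BMP and related pathways were divided evenly (23 positive and 22 negative, median 0.0021). SPRY1, an inhibitor of FGF receptor signaling, was at 182, 199 and 200 CPM in saline and between 136 and 185 CPM in treated lungs (-0.32 ± 0.10).

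Immune lists gave small differences. T cell genes (25 tested) had a median of 0.041, B cell genes (11) of -0.094, myeloid genes (28) of 0.049 and interferon-response genes (16) of 0.031. CD86, a costimulatory protein of antigen-presenting cells, was between 2.26 and 2.76 CPM in saline and between 3.1 and 4.06 CPM in treated lungs. RSAD2, the antiviral protein viperin, was at 12.7, 14.5 and 14.3 CPM in saline and between 6.57 and 10.9 CPM in treated lungs (-0.69 ± 0.16, q = 0.328). These 2 genes separated the groups, and LEF1 (T cell list; 55.5 to 66.2 CPM and 44.7 to 58.6 CPM) and FCRLA (B cell list; 0.552 to 0.661 CPM and 0.597 to 1.13 CPM) overlapped. Granulocyte genes were above saline in 10 of 11 (median 0.38), and MPO, the neutrophil peroxidase, was highest in 16-128 at 1.87 CPM. C3, the central complement protein, was at 737, 672 and 583 CPM in saline and between 776 and 1047 CPM in treated lungs with no overlap (0.41 ± 0.11). It stood in the list of mesothelial genes, of which 7 were tested with a median of -0.42. That median was 0.42 without control 15-92 and 0.03 against 16-113 alone.

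The remaining lists held no member with separated groups. Medians were 0.12 for 14 red cell genes (TRIM58 of lowest p), 0.23 for 13 striated muscle genes (RYR2), 0.31 for 11 neuroendocrine genes (UCHL1), 0.095 for 17 immediate early genes (FOSL1), 0.064 for 23 antioxidant and detoxification genes (GPX1), 0.083 for the lymphatic genes and 0.067 for 11 genes of glucocorticoid receptors and their partners (FKBP4). The median of the red cell genes rested on the controls, at 1.25 without 15-101, -0.15 without 15-92 and -0.28 without 16-113. For the 2 sex-linked genes tested the median was 0.33, and the sex of the fetuses was not given in the labels used here. The plot of gene lists shows the members of 17 lists.

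**Figure D4:**
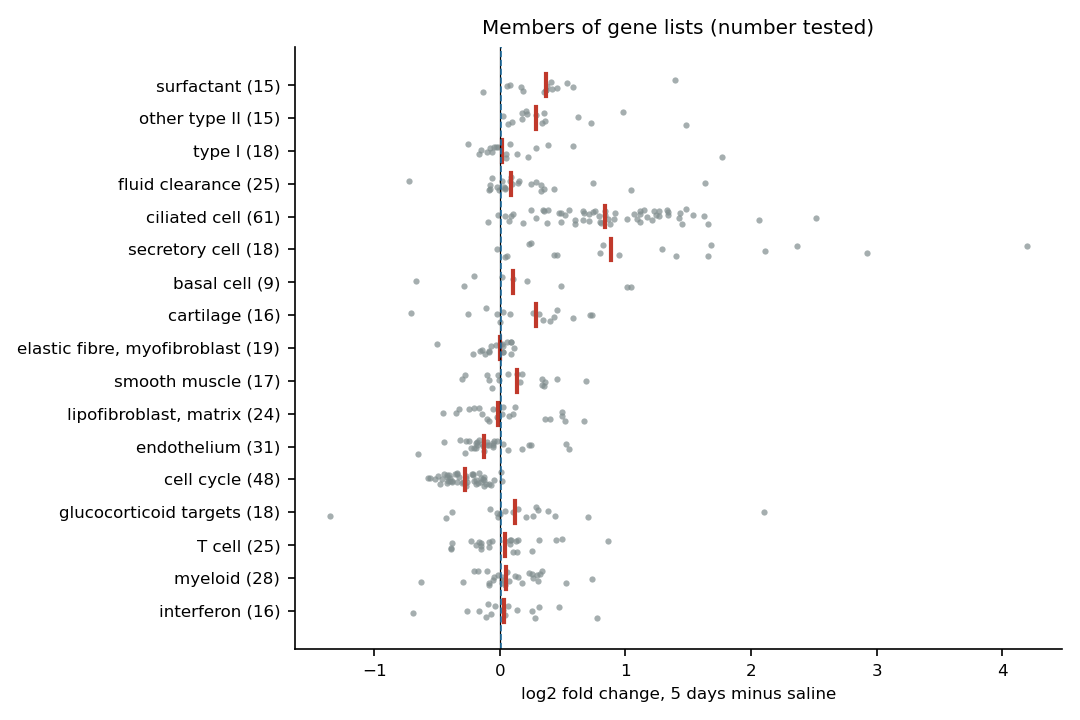
Log2 fold change (5 days minus saline, both drugs pooled) of the tested members of 17 gene lists. Points are genes, red bars are list medians, the solid line is 0 and the dashed line is the median of all genes tested (0.012); ciliated (0.83) and secretory (0.88) genes have the highest medians of these 17 and cell cycle genes (-0.27) the lowest of them.

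Glucocorticoid target genes were close to saline levels at 5 days. Of 18 tested, 12 had a positive log2 difference with a median of 0.12, 5 had an unadjusted p below 0.05 in the higher and 1 in the lower direction. EdgeR called none, and DESeq2 called CEBPD (q = 0.0817). The summed level was nevertheless higher in every treated lung, between 1074 and 1232 CPM against 1022, 993 and 986 CPM in saline. CEBPD, a transcription factor of the acute response, was at 37.1, 32.8 and 25 CPM in saline and between 39.2 and 70.4 CPM in treated lungs with no overlap (0.70 ± 0.21). GLUL, glutamine synthetase, was between 241 and 277 CPM in saline and between 281 and 350 CPM in treated lungs, also without overlap (0.27 ± 0.09). FKBP5, a cochaperone that dampens the receptor, was at 5.89, 5.31 and 5.86 CPM in saline and between 5.89 and 6.77 CPM in treated lungs, a separation smaller than the spread within the groups (0.14 ± 0.13). PER1 (0.21 ± 0.25) and ZBTB16 (0.44 ± 0.31) overlapped, and both were lowest in control 16-113. Against that animal alone their log2 differences were 0.87 and 1.63, and without it they were -0.03 and 0.08. NR3C1, the glucocorticoid receptor itself, was at 74.9, 91.4 and 119 CPM in saline and between 85.2 and 113 CPM in treated lungs (0.01 ± 0.14).

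These targets were much higher in the animals taken early after the same drugs, at 4 h (clinical drug) or at 6 h (Beta-Ac). In a joint fit of all 15 lung libraries, 12 of the 18 targets were called higher than saline at 4 h (3.22% of all genes tested were) and 7 at 6 h (0.361%). The 6 early and the 6 later treated lungs were then compared directly, without the controls they share. The 5-day animals all carry numbers beginning with 16, whereas the 4 h animals all carry numbers beginning with 15. Only the 6 h animals are mixed, with some numbers beginning with 16. The part of the animal number in this contrast, here and below, was not tested. Among the 18 targets, 12 were lower at 5 days than early (2.31% of all genes) and none was higher (2.54% of all genes), with a median log2 difference of -1.29. FKBP5 was between 119 and 216 CPM at 4 h, between 18.9 and 105 CPM at 6 h and between 5.8 and 6.67 CPM at 5 days on the scale of the joint fit. Its log2 difference was -3.93 ± 0.34 between 5 days and early (q = 1.9e-05). ZBTB16, a zinc finger repressor, was between 86.6 and 263 CPM early and between 10.2 and 18.6 CPM at 5 days (-3.63 ± 0.29, q = 1.2e-05), and PER1, a clock gene induced by the receptor, was between 455 and 825 CPM early and between 108 and 255 CPM at 5 days (-1.83 ± 0.19). The early and the 5-day levels of these 3 genes did not overlap. PDK4, a kinase that limits glucose oxidation, and KLF15 had log2 differences of -2.63 ± 0.29 and -1.46 ± 0.16. CEBPD was not called in this contrast (-0.66 ± 0.26, q = 0.116).

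**Figure D5:**
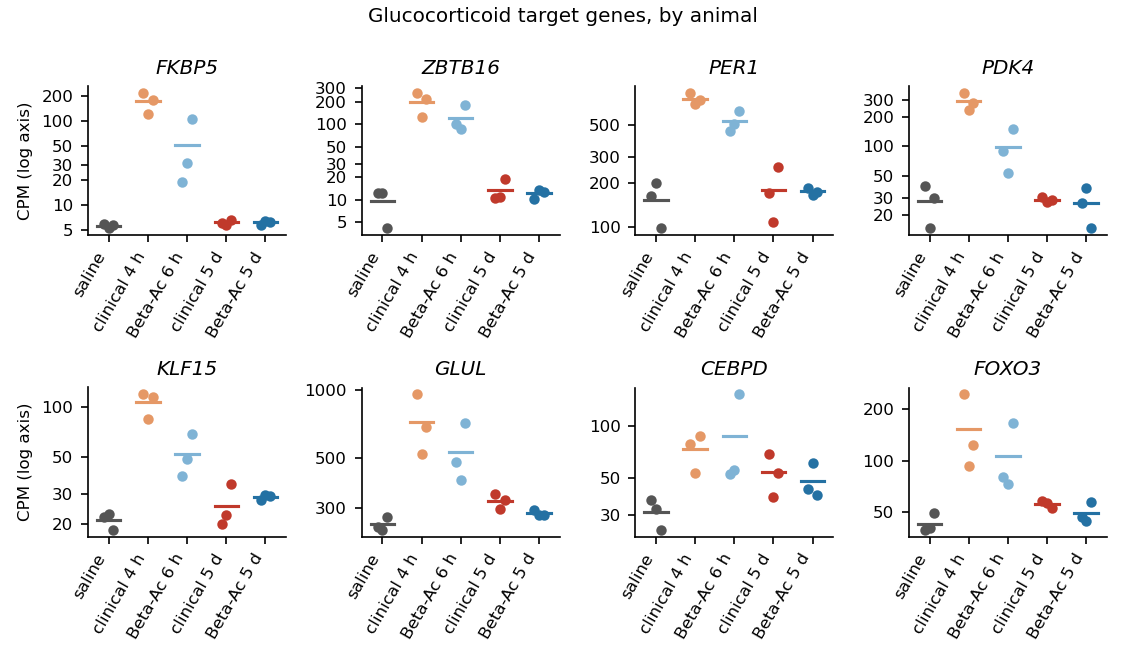
CPM of 8 glucocorticoid target genes on log axes in saline lungs, in the 6 early lungs (Beta-Ac 6 h, clinical drug 4 h) and in lungs at 5 days. Points are animals and bars are group means, scaled over all 15 lung libraries; FKBP5, ZBTB16 and PER1 do not overlap between early and 5-day animals, and CEBPD does.

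The direct comparison of 5 days with the early libraries also divided the lung genes. In the surfactant list, MFSD2A, a lipid transporter, was between 10.4 and 93.3 CPM early and between 1.31 and 11.7 CPM at 5 days (-2.83 ± 0.35), and LRRK2 (-1.21 ± 0.26) and LAMP3 (-0.81 ± 0.20) were lower too. SFTPB (-0.11 ± 0.15), SFTPC (-0.50 ± 0.19), SFTPD (0.34 ± 0.13) and LPCAT1 (0.47 ± 0.14, q = 0.0478, under 1.5-fold) were not called. Sodium channel genes were lower at 5 days than early for SCNN1A (-0.82 ± 0.15) and SCNN1G (-0.86 ± 0.22), and SCNN1B (-0.41 ± 0.16) was not called. HOPX was between 176 and 550 CPM early and between 131 and 194 CPM at 5 days (-0.97 ± 0.11). The early set joins both drugs, which differed in these genes. In the joint fit against saline, HOPX was called higher at 4 h (log2 difference 1.28, q = 0.00018) but not at 6 h (0.11, q = 0.61). SCNN1A was called higher at 4 h (1.15, q = 0.0040) but not at 6 h (0.54, q = 0.28). Of 25 T cell genes, 7 were higher at 5 days than early (2.54% of all genes were), among them CD3E, CD5, ZAP70, TRAT1, CCR7 and THEMIS, and 1, IL7R, was lower (2.31% of all genes). Against saline, 9 of the 25 were called lower and 1 higher at 4 h, and 0 in either direction at 6 h. Of the 10 genes plotted by animal, NR1D2 (1.11 ± 0.26) and DACT3 (0.89 ± 0.15) were higher at 5 days than early, and NTNG2 (-0.91 ± 0.17) and B3GALT2 (-2.72 ± 0.36) were lower. These 10 genes were chosen by their values in the same 5-day libraries, so the direction of this contrast is not independent of the choice. B3GALT2 was between 1.87 and 9.3 CPM early, between 1.57 and 2.21 CPM in saline and between 0.463 and 1.11 CPM at 5 days, so that the 5-day lungs were below both other sets and the early lungs overlapped saline. In the joint fit against saline, B3GALT2 was called higher at 4 h (1.83, q = 0.027) but not at 6 h (0.69, q = 0.44). CCDC107 did not differ between early and 5-day lungs beyond the spread (0.06 ± 0.21).

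Pooling was examined by comparing the drugs at 5 days. No gene was called between the clinical drug and Beta-Ac (0 of 17157, 0%, edgeR), with a smallest q of 0.371. Without adjustment 823 genes had a p below 0.05, 294 of them with a 1.5-fold difference, and DESeq2 called 35. A p above the threshold does not show that the preparations, given at different doses, act alike. Of the 59 named genes, 25 had a 95% interval for the drug difference that lay within 1.5-fold in both directions. The interval left out 0 for 5 genes: NR1D2 (log2 clinical drug minus Beta-Ac 0.48, 95% interval 0.21 to 0.75), NTNG2 (-0.58, -0.96 to -0.19), HOPX (-0.41, -0.64 to -0.18), DES (0.25, 0.0070 to 0.50) and LEF1 (0.25, 0.03 to 0.47). The intervals are not adjusted for the number of genes. For these 5 the edgeR q of the drug difference was between 0.81 and 0.99. NR1D2 and NTNG2 were also chosen by their values in the same libraries. For SFTPB the interval was -0.51 to 0.09 and for LPCAT1 -0.36 to 0.23.

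Each drug against saline gave list medians side by side as follows. Surfactant genes had a median of 0.23 with the clinical drug and one of 0.48 with the acetate, ciliated genes 0.53 and 1.08, cell cycle genes -0.17 and -0.43, endothelial genes -0.06 and -0.24, and glucocorticoid targets 0.18 and 0.11. Both columns share the 3 controls, so their likeness was not examined further.

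Control 16-113 was nearer to the treated lungs than the other controls in a set of genes. Of the 327 genes past both unadjusted thresholds in the higher direction, 254 were at least 1.5-fold above 16-113 alone, and 59 were so against both 15-92 and 15-101 but not against 16-113. Of the 158 lower genes the counts were 90 and 57. STEAP4, a metalloreductase, was at 15.6 and 17.7 CPM in 15-92 and 15-101, 34.3 CPM in 16-113 and between 33.5 and 47.7 CPM in treated lungs. SLC39A8, a zinc transporter, was at 123 and 122 CPM in those 2 controls, 272 CPM in 16-113 and between 237.6 and 378 CPM in treated lungs. ENSMMUG00000029342, an identifier with no symbol, was at 7.93 and 9.1 CPM in 15-92 and 15-101, 0.771 CPM in 16-113 and between 0.597 and 1.49 CPM in treated lungs. These 3 genes were chosen after their values were seen. Among these 9 lungs they set 15-92 and 15-101 apart from the other 7, control 16-113 included, and the part of the animal number in the result was not tested. The gene with the lowest q, ENSMMUG00000007056, was not of this kind, at 27.1, 21.7 and 23 CPM in the 3 controls and between 6.41 and 12.3 CPM in treated lungs (-1.36 ± 0.18).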

How the data were processed

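RNA of fetal lung was sequenced as paired-end reads in 15 libraries, of which 9 entered the comparison. The authors aligned reads to rhesus build MMUL1.0 with Bowtie (Bowtie 2 in the methods, Bowtie 1.2.1.1 in the processing notes) and counted them per Ensembl gene with featureCounts 1.5.1. The deposited values are raw counts per gene, without filter or normalization. Groups follow the labels. Symbols came from an Ensembl gene table, which paired 15769 of 30246 identifiers. Positions on the genome were not used.

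Genes that reached 7 reads in 3 or more of the 9 libraries were tested with edgeR 4.0.16 (R 4.3.3), with TMM normalization and the quasi-likelihood F-test. The standard error is the log2 fold change divided by the root of F. Fold changes use a prior count of 0.125. Adjusted p is Storey's q. The number of libraries in the read minimum is not given in the sources used here. All 9 libraries differ from each other. Reads from paralogs, overlapping genes and antisense genes were not told apart.

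The groups, gene lists, tests and named genes were chosen with earlier results of these data known. As edgeR called no gene, the named genes are, in each direction, the 5 with a symbol of lowest p among those with a 1.5-fold difference, p below 0.05, separated groups and a mean of at least 1 CPM in a group, the member of lowest p of each list, and a fixed set of lung, channel and glucocorticoid genes. The comparison with early libraries, in the joint fit of 15 libraries on the same genes, was chosen after the data were seen. Other settings were RLE, filterByExpr, no filter, Benjamini-Hochberg, no fold threshold, DESeq2 1.42.0 (Storey's q of its p-values), limma-voom 3.58.1, the joint fit, separate drug groups, gestational age as covariate, animals numbered 16 only, each drug alone and each animal left out. Thinning all libraries to equal depth was added later. The fits were tested on simulated counts. P-values measure the spread between fetuses. Depth was 14.4 to 29 M reads in the 9 libraries and 14.1 to 45 M reads in the 6 early libraries. Some genes are not reported here.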

Additional observations from a re-analysis of the deposited data

Results flagged for a closer look

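Within the 6 treated lungs, 11 of 93 sets of values had an animal farther from the rest than Dixon's 95% critical value. The sets were the 59 named genes, the summed levels of the gene lists other than the sex-linked one, and the library totals. Chance gives about 1 in 20 for a single set. The sets are not independent, since FOXJ1 and DNAH10 also count in the ciliated sum and AGR2 in the secretory sum. Beta-Ac animal 16-128 was the highest in 9 of the 11. It had 1141 CPM of summed ciliated genes (387 to 537 CPM in the other 5) and 1329 CPM of summed secretory genes (574 to 776 CPM). Among single genes it stood at 61.02 CPM for FOXJ1, 1.075 CPM for DNAH10, 40.37 CPM for AGR2, 17.99 CPM for EHF, 17.87 CPM for MS4A15, 1.871 CPM for MPO and 10.91 CPM for TMEM255A. Clinical drug animals made up the other two. Animal 16-126 had 525.9 CPM of MMP7 (159 to 281 CPM in the others), and 16-115 had 1814 CPM of summed lineage transcription factors (1591 to 1672 CPM in the others). Whether more airway tissue was in the piece taken from 16-128 was not tested.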

How the results depend on the processing

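The pooled count of called genes, 0 with the settings of the report, stayed at 0 with RLE, filterByExpr, Benjamini-Hochberg adjustment, no fold threshold, gestational age as covariate, the clinical drug alone and equal depth. It was 1 without a filter on low counts, 1 with limma-voom, 2 with all 15 lung libraries, 2 with the drugs as separate groups, 1 with only animals numbered 16, 7 with Beta-Ac alone and 96 with DESeq2. With each animal left out it ranged from 0 to 44, the highest without 16-113. The count of genes with p below 0.05 and a 1.5-fold difference (485) was 785 without a filter and 1419 without a fold threshold, and 462 to 682 with an animal left out. Between the drugs the count (0) was 1 without a filter, 35 with DESeq2 and 0 to 2 with an animal left out. The log2 difference changed sign in 17 of 1348 settings over 59 named genes. With only animals numbered 16 it was -0.13 for SFTPC, -0.077 for SFTPD, -0.42 for LAMP3 and -0.30 for NR3C1. Without an animal it was -0.025 for LAMP3 and -0.049 for AGER (15-92), -0.064 (15-101), -0.083 (16-113) and -0.031 (16-136) for SCNN1A, -0.029 for PER1 (16-113), and -0.14 (15-92), -0.017 (15-101), -0.021 (16-115) and -0.048 (16-120) for NR3C1. It was -0.069 for SCNN1A with the clinical drug alone, and -0.12 with Beta-Ac alone and -0.0049 with gestational age as covariate for NR3C1. With each animal left out the highest values of these genes were 0.64 (LAMP3), 0.49 (AGER), 0.28 (SCNN1A), 0.45 (PER1) and 0.21 (NR3C1). Of 34 list medians, 16 changed sign in at least 1 setting. Medians of the surfactant, type II, ciliated, secretory, cell cycle, endothelial and glucocorticoid lists did not. The cause was not tested. No paired analysis was possible because replicate numbers name different fetuses in each group. Depth was lower in saline and limits genes of few reads there.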

Other observations

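Outside the lists above, clock genes and genes of insulin and glucose handling were looked up after their values had been seen, so their values are a description only. Of 18 clock genes, 16 were above saline, with a median of 0.14, and 3 lay above saline in all treated animals (2.2% of all genes did). Besides NR1D2 these were NR1D1, at 7.82 to 10.9 CPM in saline and 11 to 35.4 CPM in treated lungs (1.22 ± 0.34), and DBP, an output factor of the clock, at 28.7 to 29.9 CPM in saline and 30.2 to 56 CPM in treated lungs (0.49 ± 0.17). NR1D1 (2.22 ± 0.25), NR1D2 (1.11 ± 0.26), DBP (1.099 ± 0.15) and TEF (0.76 ± 0.24) were higher at 5 days than early, as 2.54% of all genes were. PER1 (-1.83 ± 0.19), HLF (-0.82 ± 0.16) and ARNTL (-0.63 ± 0.21) were lower, as 2.31% of all genes were. The part of the animal number in these differences between 5 days and early was not tested.

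Of 23 genes of insulin signaling and glucose handling, 16 were above saline with a median of 0.13. IRS2 and HK2 lay above saline in all treated animals, as 2.2% of all genes did. HK2, the hexokinase of the insulin-responsive tissues, was at 13.6 to 18.1 CPM in saline and 20.6 to 43.1 CPM in treated lungs (1.09 ± 0.23, edgeR q = 0.289, DESeq2 q = 0.0019). INSR, the insulin receptor, overlapped, at 17.9 to 25 CPM in saline and 22.7 to 29.8 CPM in treated lungs (0.28 ± 0.13).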
